A study of Mus musculus with 4 samples.

Results

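The constitutive proteasome genes on the array were the 36 genes whose probe name was Psma, Psmb, Psmc or Psmd followed by a number, with the interferon-inducible subunits Psmb8, Psmb9 and Psmb10 left out. They were 36 of the 31896 genes with a probe, were covered by 44 probes, and each was represented by its brightest probe. Total RNA came from breast cancer cells derived from tumors of MMTV-Neu mice, in which the promoter of the mouse mammary tumor virus drives the Her2 oncogene Neu in mammary epithelium. One group was labelled Pak1 -/- (n = 2) and the other Pak1 +/+ (n = 2), and the comparison asked which transcripts change when Her2-positive cells lack Pak1, a p21-activated kinase. All 4 samples were grown in low-calcium medium with 5% horse serum, kept without serum for 3 h and given EGF for 15 min, so there were no unstimulated cells among them. The series design assigns a different tumor to each of the 2 samples of a group, and the mice's age is not given in the sources used here. All arrays shared 1 slide and 1 scan, with the Pak1 -/- arrays at its first positions and the Pak1 +/+ arrays at its last, so slide position and genotype cannot be told apart.

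The proteasome is the chamber in which the cell breaks down proteins that carry ubiquitin. Its 20S core is a stack of alpha and beta rings with the cutting sites inside the beta rings, and the 19S regulatory particle caps the core, recognises ubiquitin, removes it and unfolds the substrate with a ring of ATPases. Rapidly growing tumor cells depend on it, and the transcription factor Nfe2l1 raises the genes of the whole complex when its activity falls short.

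Median spot intensity was 322 to 331 on the 4 arrays, and 62.2% to 70.4% of probes were well above background. Precision is limited by having 2 arrays in a group. The Pak1 probe was at a log2 intensity of 12.21 and 12.25 on the arrays labelled Pak1 -/- and at 12.04 on both arrays labelled Pak1 +/+, so it was not lower in the knockout label (difference 0.19, SE 0.07, limma adjusted p = 0.070). Whether that probe lies in the deleted part of the gene is not given in the sources used here, and every direction below follows the labels. The Erbb2 probe, at the mouse gene on chromosome 11, was lower in the Pak1 -/- label (-0.31, SE 0.07, limma adjusted p = 0.020). That call was kept under 13 of 18 alternatives and lost without Pak1 -/- replicate 1 or either Pak1 +/+ replicate. Whether the Erbb2 probe reads the MMTV-driven Neu is not given in the sources used here, so it was not taken as the level of that oncogene. Of 7 epithelial marker genes 6 were well above background on all 4 arrays, and their summed log2 level was 20.02 to 20.03 in the Pak1 -/- group and 19.71 to 19.74 in the Pak1 +/+ group, most of it from Krt8 and Krt18. In limma 3 of them were higher, Cdh1 (1.19, adjusted p = 0.0012), Krt8 (0.57, adjusted p = 0.0029) and Krt18 (0.27, adjusted p = 0.027). Cdh1 kept its call under all 18 alternatives and Krt8 under 16, with Krt8 differences from 0.27 to 0.61. Krt18 kept its call under only 9 of 18, over which its difference ranged from 0.037 to 0.36. Krt19 (-0.64), Epcam (-0.23), Cldn3 (-0.17) and Cldn4 (0.02) did not pass. Of 7 leukocyte markers 6 were above background on all 4 arrays. The summed log2 level of the 7 was 15.67 to 16.19 against 15.41 to 15.56, most of it from the brightest Itgam probe. Dimmer Itgam probes were far below it and differed in sign. One was at 7.63 and 7.49 on the Pak1 -/- arrays against 7.63 and 7.89 (-0.20). Another was at 8.23 and 7.64 against 7.35 and 7.40 (0.56), and neither passed. In limma 2 leukocyte markers were lower, Emr1 (-1.05, adjusted p = 0.0011) and the pan-leukocyte marker Ptprc (-0.45, adjusted p = 0.0056, at 7.14 to 7.15 against 7.59 to 7.60). On their brightest probes Itgam (0.49) and Cd3e (0.25) lay above in both Pak1 -/- arrays but did not pass. Of the fibroblast markers, Col1a1, Col1a2 and Pdgfra were well above background on all 4 arrays and Col3a1, Dcn and Lum on none, and Col1a1 was higher in the Pak1 -/- group (1.12 log2, limma adjusted p = 0.0051), whereas Col1a2 (0.03) and Pdgfra (-0.16) did not pass. Of the endothelial markers, Kdr and Pecam1 were well above background on all 4 arrays and Emcn and Tek on none, and no endothelial marker passed on its brightest probe. A dimmer Kdr probe was higher (adjusted p = 0.00046), at 8.05 and 7.92 against 6.61 and 6.63, and was well above background only on the Pak1 -/- arrays. The summed log2 level was 10.33 to 10.54 against 10.16 to 10.18 for all 7 fibroblast markers, and 13.29 to 13.34 against 13.15 to 13.41 for all 5 endothelial markers. The part of these cell type markers in the results below was not tested. In bulk RNA, fewer cells of a type and less RNA per cell cannot be told apart.

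Proteasome genes were expressed at high levels in both groups and differed little between them. Of the 36 genes, 34 were well above background on all 4 arrays and were tested, with log2 intensities from 11.25 to 17.40 on single arrays and no saturated spot. In the arrays labelled Pak1 -/-, 10 genes were higher, 3 were lower and 21 did not pass the threshold (limma, adjusted p under 0.05 over all probes). The background was large: 51.9% of all probes passed, 23.3% higher and 28.6% lower. Among the 9010 genes at least as bright as the dimmest tested proteasome gene, 25.7% were higher and 34.2% lower, against 29.4% and 8.82% of the proteasome genes. None of the 34 reached a 2-fold difference with an adjusted p under 0.05, compared with 10.9% of those 9010 genes. At an unadjusted p under 0.05, 13 were higher and 5 lower. The split of calls moved with the scaling: with each array scaled to its 75th percentile in place of quantile normalization, 5 genes were higher and 5 lower, and with cyclic loess 13 were higher and 3 lower. The background moved too: 44.9% of all called probes were higher with quantile normalization, 43.0% to 43.1% with 75th-percentile scaling and 52.4% with cyclic loess.

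The differences lay in a narrow band. They ran from -0.49 to 0.70 on the log2 scale with a median of 0.050 and an SD of 0.31, where the genes at least as bright had a median of -0.071 and an SD of 0.78. The median of the proteasome genes moved with the scaling, to -0.086 and -0.074 under 75th-percentile scaling (processed signal and normexp values) and to 0.12 with cyclic loess, as did that of 1803 genes of like brightness, from -0.062 to -0.17, -0.15 and 0.040. Without regard to direction the median difference was 0.20 log2 for the proteasome genes and 0.35 log2 for the genes at least as bright, 69.6% of which lay within the range of the proteasome genes. These are descriptions of 2 sets of genes, with no test between them. The replicates were nearer to each other than the groups: the median gap between the 2 arrays of a group was 0.056 log2 for Pak1 -/- and 0.032 for Pak1 +/+. No overlap between groups was seen for 28 of the 34 genes (82.4%), with 17 higher and 11 lower, and the same held for 86.8% of the genes at least as bright. The genes whose groups overlapped were Psma4, Psmc4, Psmd1, Psmd6, Psmd7 and Psmd13.

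**Figure D1:**
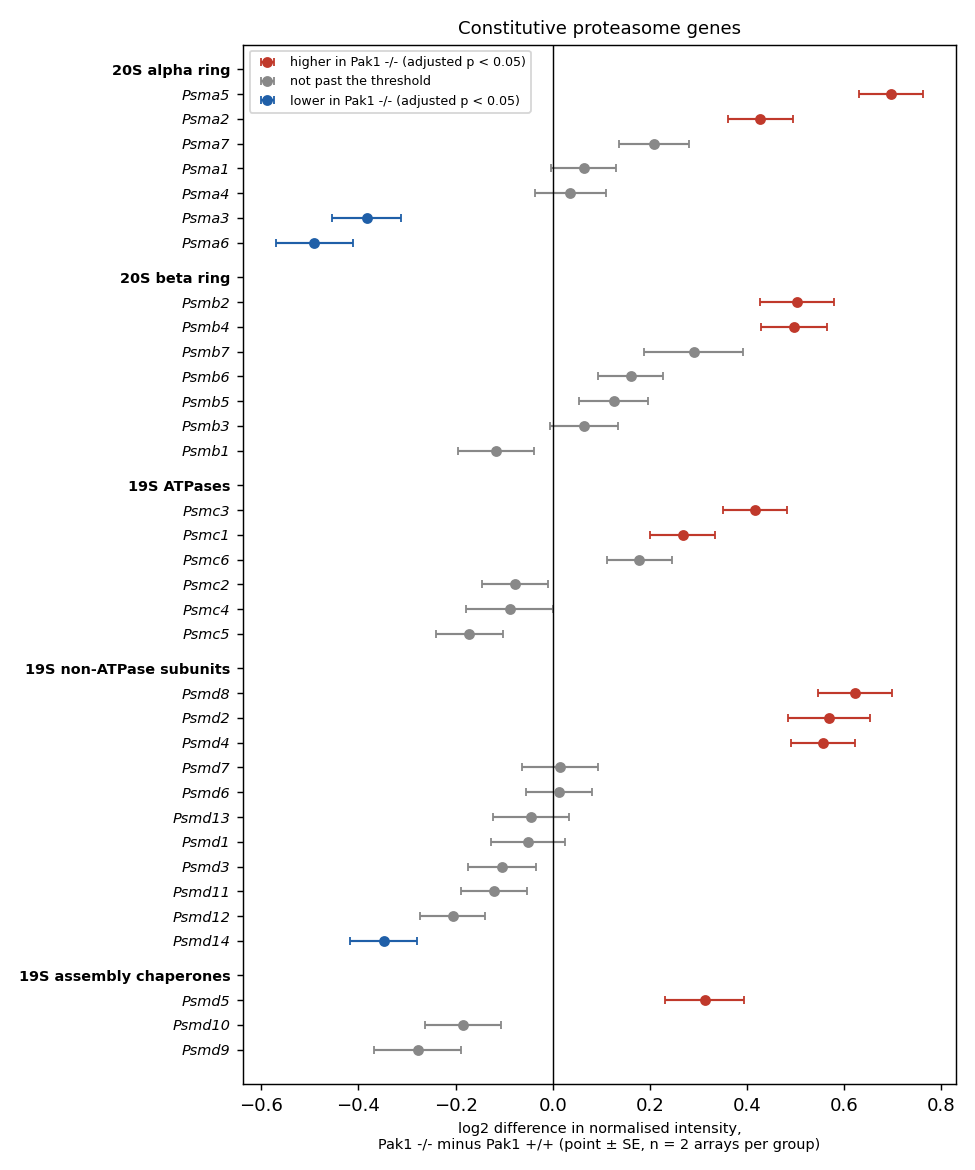
The log2 difference in normalised intensity (horizontal axis, Pak1 -/- minus Pak1 +/+, n = 2 arrays per group) for the 34 tested genes, grouped by role in the complex, with bars giving the SE of the limma fit. Red points are the 10 genes higher, blue points the 3 genes lower and grey points the 21 genes not past an adjusted p of 0.05, and every point lies between -0.49 and 0.70.

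**Figure D2:**
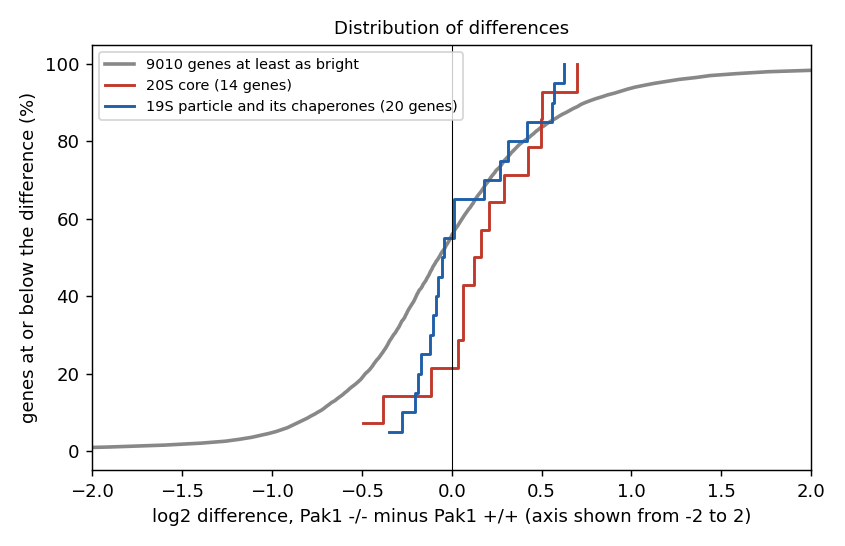
The share of genes (vertical axis, percent) at or below each log2 difference (horizontal axis, shown from -2 to 2) for the 14 genes of the 20S core, the 20 genes of the 19S particle and its chaperones, and the 9010 genes at least as bright as the dimmest tested proteasome gene. The proteasome curves rise within a narrow band around 0, while the grey curve has long tails on both sides.

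The alpha ring, which gates the entry to the core, held both the largest rise and the largest fall. Of its 7 genes from Psma1 to Psma7, 2 were higher and 2 lower, with a median difference of 0.064 log2. Psma5 was at 15.98 and 15.99 on the Pak1 -/- arrays and at 15.29 and 15.28 on the Pak1 +/+ arrays. It was higher by 0.70 log2 (1.62-fold, SE 0.07, limma adjusted p = 0.0016), with no overlap between the groups. Psma2 was at 17.18 and 17.21 against 16.76 and 16.77, higher by 0.43 (SE 0.07, adjusted p = 0.0067). In the opposite direction, Psma6 was at 15.08 and 15.20 against 15.66 and 15.60, a difference of -0.49 (1.41-fold lower, SE 0.08, adjusted p = 0.0073). Psma3 was at 16.55 and 16.47 against 16.90 and 16.88, a difference of -0.38 (SE 0.07, adjusted p = 0.011). Subunits of the same ring thus moved in opposite directions in these arrays, each beyond the gap between its replicates. The fall of Psma3 did not pass without Pak1 +/+ replicate 1 (adjusted p = 0.062) or replicate 2 (adjusted p = 0.057), and the rise of Psma2 did not pass under 75th-percentile scaling (0.16 with the processed signal and 0.18 with normexp values). The remaining members, Psma1, Psma4 and Psma7, had differences of 0.06, 0.04 and 0.21 that did not pass. The probe of Psma5 lies at chr3:108082777-108082836 and that of Psma6 at chr12:56511127-56511186, in mm9 coordinates as the files give them.

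The beta ring carries the catalytic sites. None of its 7 genes was lower, 2 were higher, and the median difference was 0.16 log2. Both genes that were higher encode subunits without a catalytic site. Psmb2 was at 11.83 and 11.74 against 11.31 and 11.25, higher by 0.50 log2 (SE 0.08, adjusted p = 0.0060), and Psmb4 was at 17.37 and 17.38 against 16.86 and 16.89, higher by 0.50 (SE 0.07, adjusted p = 0.0043). For each of them the lowest Pak1 -/- array lay above the highest Pak1 +/+ array. Psmb2 kept its call under 17 of 18 alternatives, whereas Psmb4 did not pass under 75th-percentile scaling (0.21 with the processed signal and 0.24 with normexp values). The structural subunits Psmb1 and Psmb3 had differences of -0.12 and 0.06 that did not pass.

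The constitutive catalytic subunits did not pass the threshold. Psmb5, which carries the chymotrypsin-like activity that proteasome inhibitor drugs block, was at 17.24 and 17.32 against 17.17 and 17.14, a difference of 0.13 log2 (SE 0.07, adjusted p = 0.20). Its second probe was at 15.25 and 15.48 against 15.58 and 15.61 and pointed the other way (-0.23, adjusted p = 0.13). Psmb6, the caspase-like subunit, was at 16.72 and 16.75 against 16.57 and 16.58 (0.16, SE 0.07, adjusted p = 0.11). Psmb7, the trypsin-like subunit, was at 15.54 and 15.77 against 15.40 and 15.34 (0.29, SE 0.10, adjusted p = 0.070), and it passed under 5 of 18 alternatives, among them without Pak1 -/- replicate 1 (0.40, adjusted p = 0.036). Both arrays labelled Pak1 -/- were above both arrays labelled Pak1 +/+ for these subunits, except on the second Psmb5 probe, but under 75th-percentile scaling Psmb5 was at -0.16 with the processed signal and -0.13 with normexp values, and Psmb6 at -0.087 and -0.076.

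The inducible subunits that take their places in the immunoproteasome were on another scale. Psmb8, which replaces Psmb5, was at 16.08 and 15.98 on the Pak1 -/- arrays and at 9.03 and 9.34 on the Pak1 +/+ arrays, higher by 6.85 log2 (SE 0.12, limma adjusted p = 4.7e-05). Psmb9, which replaces Psmb6, was higher by 2.87 (SE 0.10, adjusted p = 0.00014), and Psmb10, which replaces Psmb7, by 1.67 (SE 0.08, adjusted p = 0.00033). Every inducible subunit kept its call under all 18 alternatives. Each differed by more than the highest difference among the 34 constitutive genes, 0.70 log2.

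The tissue-restricted subunits were at or near background. Psma8, an alpha subunit of the testis, was at 7.87 and 6.60 on the Pak1 -/- arrays and at 5.91 and 6.04 on the Pak1 +/+ arrays, and it was well above background only on Pak1 -/- replicate 1. Psmb11, the catalytic subunit of the thymus, was at 6.06 and 5.95 against 6.10 and 6.02 and was well above background on no array. Neither gene was tested.

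**Figure D3:**
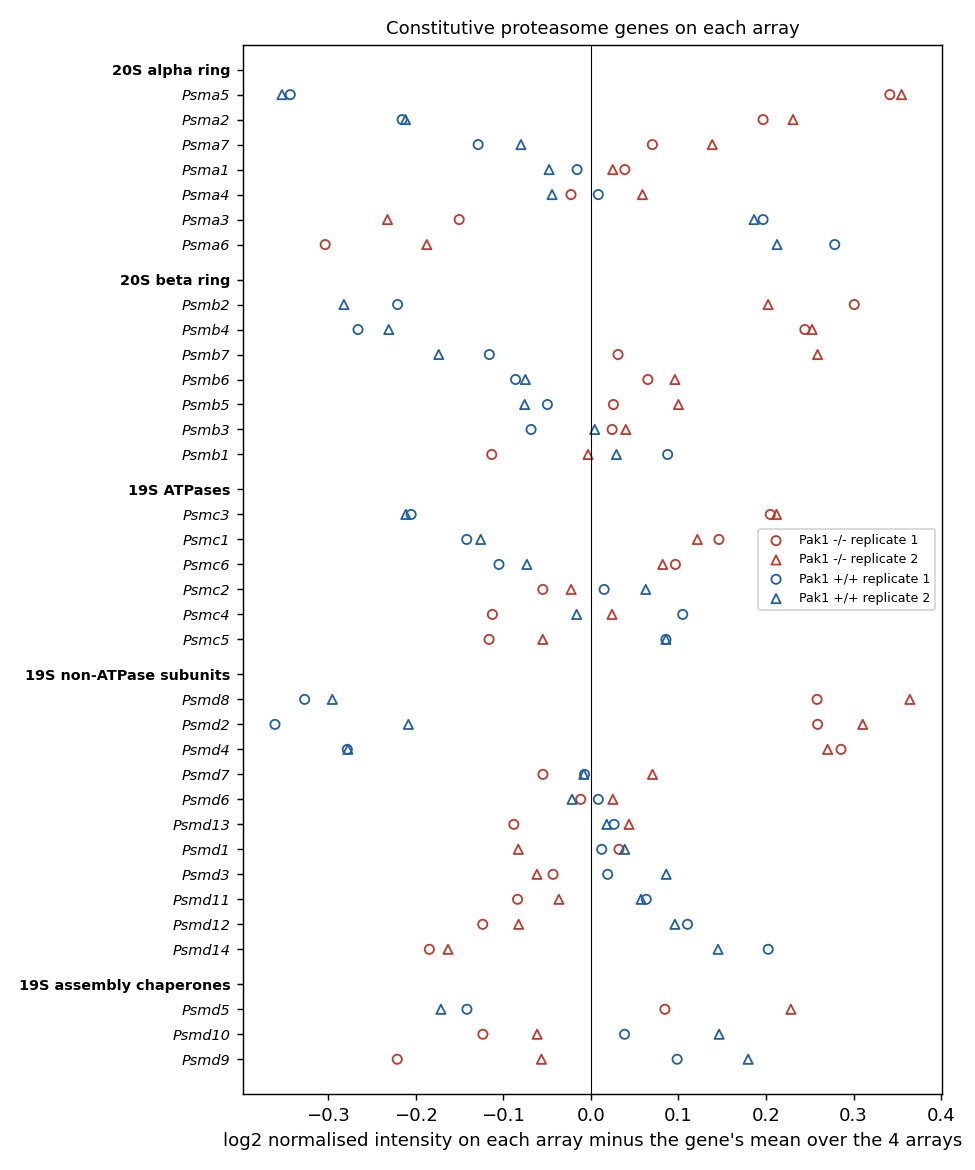
Log2 normalised intensity of each tested proteasome gene on each of the 4 arrays, as its distance from the gene's own mean over the arrays (horizontal axis, log2). Red symbols are Pak1 -/- and blue symbols Pak1 +/+, with a circle for replicate 1 and a triangle for replicate 2, and symbols of one colour lie close together for most genes while the colours separate for 28 of 34.

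The 6 ATPases of the 19S particle unfold the substrate and push it into the core. Of these, 2 were higher and none was lower, with a median difference of 0.050 log2. Psmc3 was at 17.39 and 17.40 against 16.98 and 16.97, higher by 0.42 (SE 0.07, adjusted p = 0.0069). Psmc1 was at 17.04 and 17.01 against 16.75 and 16.77, higher by 0.27 (SE 0.07, adjusted p = 0.027). Neither pair of groups overlapped, but both genes have a second probe that did not pass. For Psmc3 that probe was at 16.10 and 16.24 against 15.95 and 15.99 (0.20, adjusted p = 0.098), and for Psmc1 at 15.09 and 15.24 against 15.27 and 15.23 (-0.08, adjusted p = 0.46), with overlapping groups. Psmc1 lost its call under 10 of the 18 alternatives, including without any 1 of the 4 arrays and with the replicate block (limma adjusted p = 0.060). Over the alternatives the Psmc1 difference ranged from 0.014 to 0.28. Psmc3 lost its call under 75th-percentile scaling (0.12 with the processed signal and 0.15 with normexp values). The remaining ATPases, Psmc2, Psmc4, Psmc5 and Psmc6, had differences of -0.08, -0.09, -0.17 and 0.18 that did not pass.

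The non-ATPase subunits build the lid and the base of the cap and hold its ubiquitin receptors. Of 11 genes 3 were higher and 1 was lower, and the median difference was -0.045 log2. Psmd8, a lid subunit, was at 14.95 and 15.06 against 14.36 and 14.40, higher by 0.62 (1.54-fold, SE 0.08, adjusted p = 0.0031). Psmd2, the large base subunit on which ubiquitin shuttles dock, was at 15.86 and 15.91 against 15.24 and 15.40, higher by 0.57 (SE 0.08, adjusted p = 0.0057). Psmd4, a ubiquitin receptor, was at 16.76 and 16.74 against 16.20 on both arrays, higher by 0.56 (SE 0.07, adjusted p = 0.0030). Psmd4 is outside the rule for named genes and was chosen after its values were seen. All of these calls held under 17 of 18 alternatives and were lost only where a 2-fold difference was also asked for, and the same was true of Psma5, Psma6 and Psmb2, 6 genes in all.

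Psmd14, the deubiquitinase that strips ubiquitin chains from the substrate, was the lower gene of the cap. It was at 12.53 and 12.55 against 12.92 and 12.86, a difference of -0.35 log2 (1.27-fold lower, SE 0.07, adjusted p = 0.014). The groups did not overlap. The call was lost without Pak1 -/- replicate 1 (adjusted p = 0.051) and without Pak1 +/+ replicate 1 or 2 (adjusted p = 0.083 and 0.056). Psmd12, another lid subunit, was at 15.81 and 15.85 against 16.04 and 16.02 on its brightest probe and did not pass (-0.21, adjusted p = 0.059), though it did under 6 of 18 alternatives. Its dimmer probe was at 12.33 and 12.31 against 12.58 and 12.64 and did pass (-0.29, adjusted p = 0.024). Psmd1, Psmd3, Psmd6, Psmd7, Psmd11 and Psmd13 had differences from -0.12 to 0.02 that did not pass.

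Psmd5, Psmd9 and Psmd10 are named with the cap but encode chaperones that help assemble its base and leave the finished particle. Psmd5 was at 13.04 and 13.19 against 12.82 and 12.79, higher by 0.31 log2 (SE 0.08, adjusted p = 0.031). Its call was lost under 9 of the 18 alternatives, among them without Pak1 -/- replicate 2 (adjusted p = 0.083), without Pak1 +/+ replicate 1 (adjusted p = 0.10) or replicate 2 (adjusted p = 0.13), and with the replicate block (adjusted p = 0.053). Psmd9 was at 11.62 and 11.78 against 11.94 and 12.02 on its brightest probe (-0.28, SE 0.09, adjusted p = 0.056), which passed under 5 of 18 alternatives, among them without Pak1 -/- replicate 2 (-0.36, adjusted p = 0.047). Its other probe was at 11.31 and 11.48 against 11.90 and 11.84 and was lower (-0.48, adjusted p = 0.012). Psmd10, the protein also known as gankyrin, had a difference of -0.18 that did not pass (adjusted p = 0.11). Of the 8 proteasome genes with more than 1 probe, 4 gave the same call on every probe, and none of their probes passed. For Psma4, Psmb5 and Psmc1 the probes differed in sign. Of the 13 called genes 11 had a single probe, and the second probes of Psmc1 and Psmc3 did not pass. The second Psma4 probe was at 14.08 and 14.26 against 14.27 and 14.23 (-0.08, adjusted p = 0.51).

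Genes that work with the proteasome covered a wider range than its subunits. Of 45 such genes with a probe, 44 were tested, and 61.4% of these passed in limma, 15 higher and 12 lower, against 38.2% of the 34 constitutive genes and 60.0% of the genes at least as bright as the dimmest of them. The 3 inducible subunits were all higher. Calls in 1 direction were also seen for the proteasome gene regulators (2 of 8 higher), the beta ring (2 of 7) and the 19S ATPases (2 of 6). In the list of 20S assembly genes 4 of 6 were lower (66.7%) and none was higher, with a median difference of -0.40 log2. Among the genes at least as bright as the dimmest tested proteasome gene, 34.2% were lower. Psmg2, which helps build the alpha ring, was at 12.95 and 12.94 against 13.84 and 13.97, a difference of -0.96 (SE 0.08, adjusted p = 0.0011). The other lower genes of the list were Psmg3 and Pomp, which are assembly chaperones, and Akirin2, which carries assembled proteasomes into the nucleus and is no assembly chaperone. Akirin2 lost its call under 5 of the 18 alternatives, among them without Pak1 -/- replicate 1 or 2 and without Pak1 +/+ replicate 1 (adjusted p = 0.061, 0.062 and 0.10). Of the 5 chaperones alone, 3 were lower. Among proteins that bind the 19S particle, 2 of 7 were higher and 4 lower. Txnl1, a thioredoxin-like protein on the cap, was at 10.62 and 10.42 against 11.42 and 11.36 (-0.87, SE 0.10, adjusted p = 0.0024), and Ecpas, an adaptor that holds core and cap together, was at 10.78 and 10.44 against 9.76 and 9.90 (0.78, SE 0.14, adjusted p = 0.0097). Arrays of the 2 groups did not overlap for any of these named genes.

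The alternative caps went both ways. Of 5 activator and inhibitor genes 2 were higher and 1 was lower on the brightest probe. Psme4 did not pass on that probe (0.43, limma adjusted p = 0.086), while its dimmer probe was higher (0.53, adjusted p = 0.021). Psme1, a subunit of the interferon-inducible activator, was at 16.11 and 16.04 against 14.78 and 14.90, higher by 1.23 log2 (SE 0.08, adjusted p = 0.00061). Psme3, the nuclear activator, was at 12.20 and 12.38 against 12.83 and 12.78, a difference of -0.51 (SE 0.09, adjusted p = 0.0095).

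Among the genes that supply substrates, 4 of 9 tested shuttle receptor and p97 genes were higher and 2 lower, and 2 of 6 ubiquitin and E1 genes were higher and 1 lower. Vcp, the p97 segregase that pulls ubiquitinated proteins out of complexes and membranes, was at 16.07 and 16.05 against 15.02 and 15.14, higher by 0.98 log2 (SE 0.08, adjusted p = 0.0010). It kept its call in all alternatives but the one with a 2-fold requirement. Uba6, an E1 enzyme that activates ubiquitin, was at 10.11 and 10.09 against 10.93 and 10.82 (-0.77, SE 0.08, adjusted p = 0.0017).

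**Figure D4:**
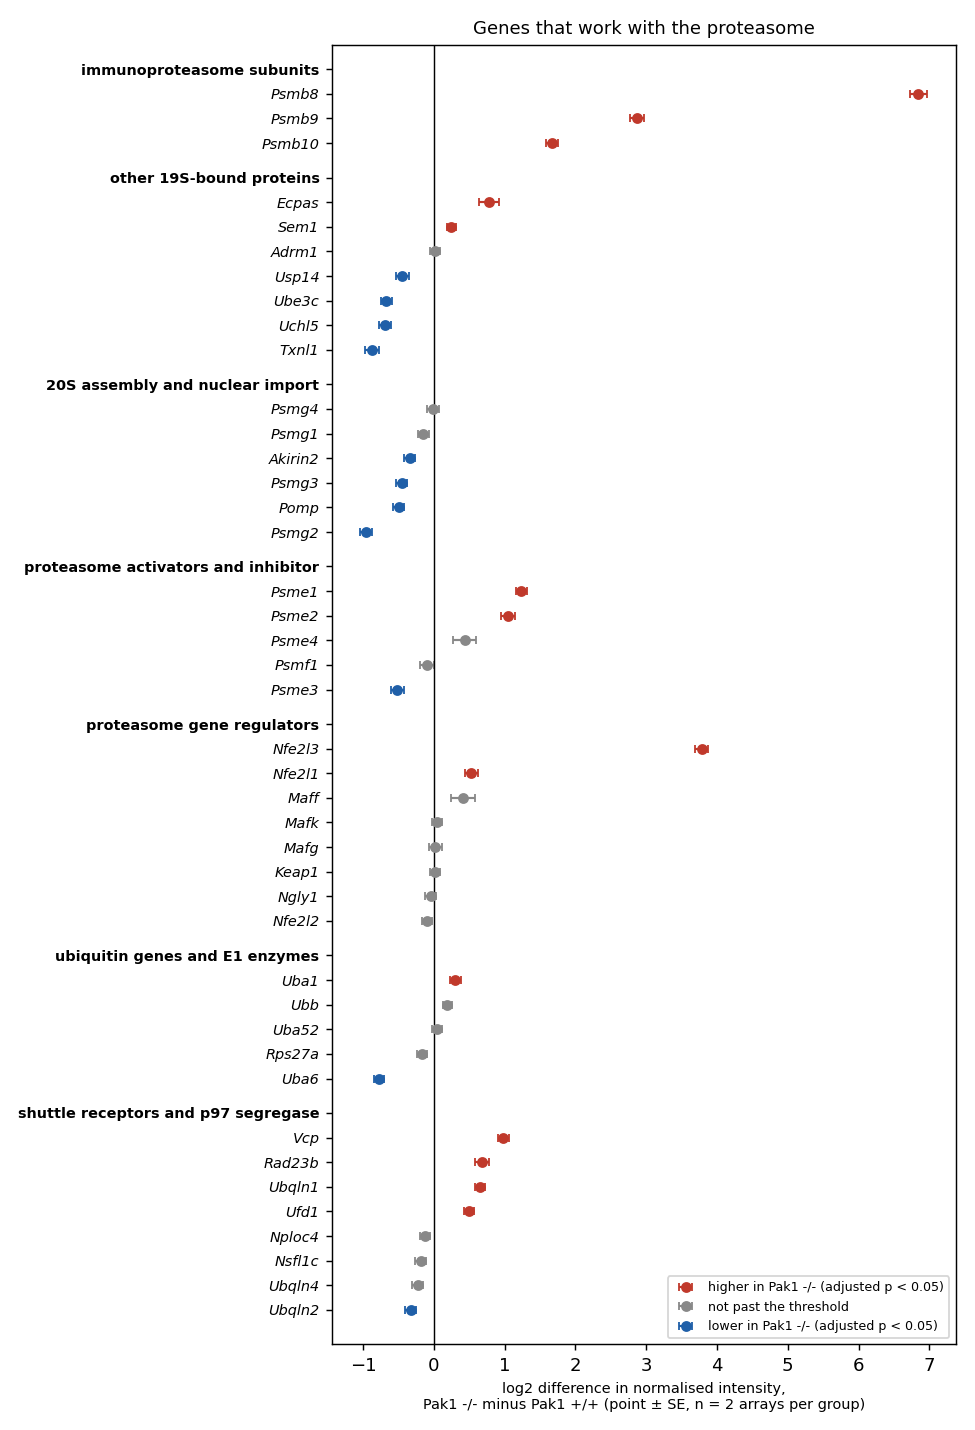
The log2 difference in normalised intensity (horizontal axis, Pak1 -/- minus Pak1 +/+, n = 2 arrays per group, bars giving the SE of the limma fit) for 42 of the 44 tested genes that work with the proteasome, grouped by list and coloured by call. Psmb8 stands at 6.85 and Nfe2l3 at 3.78, and the 6 genes listed with 20S assembly all lie below 0, from -0.96 to -0.02.

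Transcription factors that control proteasome genes were also examined. Of 8 regulators tested 2 were higher and none was lower. Nfe2l3, a relative of Nfe2l1 that binds the same element with small Maf partners, was at 11.53 and 11.45 against 7.79 and 7.62, higher by 3.78 log2 (SE 0.09, adjusted p = 7.1e-05), and it kept this call under all 18 alternatives. Nfe2l1 itself was at 11.48 and 11.52 against 10.86 and 11.07, higher by 0.53 (SE 0.10, adjusted p = 0.010). That call was lost without Pak1 -/- replicate 1 or 2 (adjusted p = 0.051 and 0.054), and Nfe2l1 is outside the rule for named genes. Nfe2l2, the factor of the oxidative stress response, did not pass (-0.09, adjusted p = 0.34).

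The promoters of the proteasome genes were read for the elements these and other factors bind, in the RefSeq windows from 250 bases before to 50 bases after a gene's start (GRCm38.p6). Windows of 29 of the 36 genes were read, 31 windows in all, and 5 motifs were searched on both strands. Of the other genes 6 had no window, and Psma8 was left out of the search. The comparison windows kept those of its chromosome. The antioxidant response element that Nfe2l1 and its relatives bind, TGACNNNGC, occurred in 5 windows (16.1%), against 12.4% of all 32851 windows and 13.9% of the windows of tested genes. Those were Psmb5, Psmb6, Psmc6, Psmd9 and Psmd12, and none of the 8 higher and 3 lower genes with a window held it. The ETS motif CCGGAAG occurred in 11 windows (35.5%), against 8.86% of all windows and 14.6% of the windows of tested genes. It was in 3 of the 8 higher genes (Psmd2, Psmd4 and Psmc1), 1 of the 3 lower genes (Psma6) and 6 of the 17 genes that did not pass. The CCAAT box, CCAAT, occurred in 38.7% of the proteasome windows and 37.4% of all windows, in 3 of the 8 higher genes, all 3 lower genes and 5 of the 17 that did not pass. The AP-1 motif TGAGTCA occurred in 1 window (Psmd9, 3.23% against 5.20%), and the CRE TGACGTCA in none (1.79% of all windows). An AP-1 motif can lie within a response element, but the matches in Psmd9 were at separate positions, -126 and -31 from the start. A match is a description of letters and not a bound site.

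The 150 bases before the start are shown for the catalytic genes whose window held the antioxidant response element and for Psmd2 and Psmd4, which differed most among the 3 higher cap genes with the ETS motif. Each is written 5′ to 3′ on the gene's strand from RefSeq, with GRCm38.p6 coordinates, and capitals mark the motif match on either strand, the response element in the first pair and the ETS motif in the second.
Psmb5 (chr14:54617996-54618145, minus strand): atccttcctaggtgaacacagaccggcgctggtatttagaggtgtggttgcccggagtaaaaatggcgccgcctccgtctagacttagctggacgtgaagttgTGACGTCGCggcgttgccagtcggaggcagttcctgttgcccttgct
Psmb6 (chr11:70525207-70525356, plus strand): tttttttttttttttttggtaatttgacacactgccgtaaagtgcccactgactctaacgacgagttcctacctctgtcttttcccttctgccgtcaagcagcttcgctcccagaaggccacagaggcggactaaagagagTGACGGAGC
Psmd2 (chr16:20651502-20651651, plus strand): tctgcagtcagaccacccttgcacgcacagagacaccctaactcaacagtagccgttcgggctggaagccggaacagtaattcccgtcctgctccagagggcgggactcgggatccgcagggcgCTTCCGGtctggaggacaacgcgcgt
Psmd4 (chr3:95042615-95042764, minus strand): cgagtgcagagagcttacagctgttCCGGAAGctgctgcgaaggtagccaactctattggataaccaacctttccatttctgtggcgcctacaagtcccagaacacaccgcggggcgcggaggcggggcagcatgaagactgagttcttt

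Counted from the start, with the first base before it as -1, the matches began at position -47 in Psmb5, -9 in Psmb6, -26 in Psmd2 and -125 in Psmd4. Psmb5 and Psmb6, which hold the response element, differed by 0.13 and 0.16 log2 and did not pass the threshold. Psmd2 and Psmd4, which hold the ETS motif, were higher by 0.57 and 0.56 log2. Psmc1, which holds it too, was higher by 0.27, a call lost under 10 of 18 alternatives. Psma6, with the motif in 1 of its windows, was lower (-0.49). The other genes with the motif, Psmc2, Psmc6, Psmd6, Psmd11, Psmd12 and Psmd13, had differences from -0.21 to 0.18 that did not pass.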

How the data were processed

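RNA of 4 samples was labelled with Cy3 and hybridized to Agilent single-colour mouse arrays, 1 array per sample. The deposited scanner files hold, per their headers, linear spot intensities from Feature Extraction 9.5.3.1, not normalized between arrays, with flags for saturation, background and outliers. The authors also deposited a log2 table that their methods describe as normexp corrected and quantile normalized. No offset or filter was stated, and that table served as an alternative.

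Here, all spots were background corrected with normexp (offset 50) in limma 3.58.1 (R 4.3.3), control spots were left out, and log2 values were quantile normalized. Outlier spots were set aside, spots of a probe were averaged, and a probe was kept if at least 2 of 4 arrays had it well above background (27229 of 39429). The offset understates changes of dim probes. Groups were compared with lmFit and eBayes (two-sided, 2 residual degrees of freedom, Benjamini-Hochberg over all probes kept, threshold 0.05). An exact permutation test of 2 arrays against 2 cannot go below p = 0.333. The fit was tested on simulated data. The brightest probe stood for a gene. Groups came from the sample titles, and no replicate number is said to pair samples. P-values rest on the spread between 2 samples of a group, which eBayes moderates toward the spread over all probes kept. All 36 symbols matched RefSeq (GRCm38.p6), which also gave the promoter windows. Figures were drawn with matplotlib 3.10.9.

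Genes were named by a rule: catalytic subunits; in each role group the called genes with the largest differences, up to 2 in each direction; genes near background; genes whose probes disagree; and in each related list the called genes with the largest rise and fall. Members, lists and motifs were chosen with earlier results of these data known. The 18 alternatives varied the background offset, scaling, filter, probe rule, threshold, variance prior, replicate block, value table and the arrays used. Human samples of the study were not analysed here, and the values of 2 related genes are not reported here.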

Additional observations from a re-analysis of the deposited data

How the results depend on the processing

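No constitutive proteasome gene called here and in another setting changed direction, under any of the 18 alternatives, and of the values of the genes given with full statistics, the called related genes, Pak1 and Erbb2, 731 stayed on the same side of the threshold in the same direction, 104 lost it, 19 gained it and 10 changed sign. Over the 34 tested proteasome genes, 12 changed sign under at least 1 alternative, none of them among the 13 called, and 8 of those not called passed under at least 1. Alternatives that changed only the threshold, the filter, the variance prior or the replicate block left each of these differences as it was. They could not change a sign. The same held for the mean of the probes where a gene had 1 probe, as for 11 of the 13 called. Part of the counts above was thus fixed in advance. Scaling to the 75th percentile moved the constitutive proteasome median log2 difference from 0.050 to -0.086 (processed signal) and -0.074 (normexp values). Each of these gave 5 genes higher and 5 lower. Of the member calls 76.9% were higher with quantile normalization, 50% with 75th-percentile scaling and 81.3% with cyclic loess, where all called probes gave 44.9%, 43.0% to 43.1% and 52.4%. The count of lower proteasome genes, 3, became 5 with the filter on all 4 arrays, with the mean of the probes of a gene and without adjustment, 6 with trend and robust eBayes, and 1 at an adjusted p under 0.01. Stricter thresholds also lowered the count of all probes past the threshold, from 14132 to 8878 at 0.01 (4184 higher, 4694 lower) and to 3413 with 2-fold (1889 higher, 1524 lower). With 2-fold, 0 proteasome genes were higher and 0 lower, and of the related lists 6 were higher and 0 lower. Leaving out each array in turn, with the remaining single array assumed as variable as the other group, gave 8 to 10 proteasome genes higher and 1 to 4 lower (1 without either Pak1 +/+ replicate), a median of 0.031 to 0.074, and 10314 to 12172 probes.

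With the replicate number as a term (replicate block), 13211 probes passed, 8 proteasome genes were higher and 3 lower. Deviations of same-numbered arrays had r = -0.028 (across probes, which are not independent replicates), so the numbers were not taken as pairs.

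Of the genes with full statistics and the called related genes, these changed sign. Psma4 was at -0.059 (processed signal, 75th percentile), -0.027 (normexp, 75th percentile), -0.021 (mean of probes) and, without 1 array each, from -0.0048 to 0.077. Psmb5 was at -0.16, -0.13 and -0.050 under the first 3 of these, and Psmb6 at -0.087 and -0.076 under the first 2. Sem1, called higher, was at -0.037 with the processed signal scaled to the 75th percentile. The cause was not tested. Signal over background limits only Psma8 and Psmb11 among the proteasome genes.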
